A study of Mus musculus with 9 samples.

Results

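TRBV2 and TRBV19 are V gene segments of the T-cell receptor beta (TRB) locus on mouse chromosome 6. In lymph node libraries of WT mice and of the 5xFAD line, whose transgenes carry familial Alzheimer's disease mutations, 2069 of 27448 TRB rearrangements used them, 919 with TRBV2 and 1150 with TRBV19. A rearrangement was a distinct combination of TRBV gene, TRBJ gene and junction nucleotides of productive chains within a library, so that a repeated clone counted as 1. The genes were chosen by measured values, namely opposite 5xFAD to WT ratios in the inguinal and the superficial cervical nodes and a high share in a library titled CD4. Those shares and ratios are therefore given as a description, with no test.

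Lymph node cells of female mice aged 10 to 11 months came from inguinal nodes (iLN), from superficial cervical nodes (sCLN) and from deep cervical nodes (dCLN), which drain the brain's meninges. They were tagged with hashtag antibodies and sequenced with a 10x 5′ immune profiling kit. Each node and genotype, dCLN WT, dCLN 5xFAD, sCLN WT, sCLN 5xFAD, iLN WT and iLN 5xFAD, gave 1 library, called the 6 node libraries here. A dCLN library with CD4 in its title, labelled WT, and a library titled as mixing the 3 node types of both genotypes were set beside them. The TRBV19 germline forms of the mixed library, given below, differ from those of all 6 node libraries, so which animals it came from is uncertain. A second CD4-titled library, labelled 5xFAD, was left out because it shared 6829 of its 6915 barcodes and 12709 combinations of barcode and junction with the first, so the genotype of the CD4-titled cells is uncertain. Among the 28 pairs of the 8 libraries used, at most 46 barcodes and 0 combinations of barcode and junction were shared. Neither the number of animals per library nor whether nodes shared animals is given in the labels. P-values over libraries therefore measure only the spread between these libraries. The node libraries held 1875 to 4661 TRB rearrangements, the CD4-titled library 6686 and the mixed library 3992. The files hold receptor chains only, so neither CD4 nor CD8 expression could be checked.

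A TRB chain is made in the thymus by joining a V, a D and a J segment, with bases trimmed and added at the joins. The V segment encodes the CDR1 and CDR2 loops, which mostly contact the MHC molecule, and the start of the junction (CDR3), which mostly contacts the peptide. TRBV2 encodes the Vβ4 chain of the older naming, known in mice for the expansion of Vβ4 CD8 T cells during gammaherpesvirus infection. TRBV19 encodes Vβ6, known for its reactivity to superantigens of endogenous mouse mammary tumour proviruses.

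The germline V regions are shown because every chain described here carries one of them. They start at the first base after the leader and end where the junction begins, in the GRCm38 build with the GENCODE annotation, and capitals mark CDR1 and CDR2. TRBV2 (ENSMUSG00000076462.2) lies on the + strand at chr6:41047709-41047978 in exon 2 of its gene. TRBV19 (ENSMUSG00000076475.2) lies on the + strand at chr6:41178763-41179032, also in exon 2.
TRBV2: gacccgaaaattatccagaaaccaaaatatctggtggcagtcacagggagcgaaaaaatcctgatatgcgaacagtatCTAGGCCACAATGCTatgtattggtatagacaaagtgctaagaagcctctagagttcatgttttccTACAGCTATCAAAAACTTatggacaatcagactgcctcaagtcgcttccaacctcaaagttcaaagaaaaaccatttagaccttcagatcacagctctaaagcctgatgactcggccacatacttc
TRBV19: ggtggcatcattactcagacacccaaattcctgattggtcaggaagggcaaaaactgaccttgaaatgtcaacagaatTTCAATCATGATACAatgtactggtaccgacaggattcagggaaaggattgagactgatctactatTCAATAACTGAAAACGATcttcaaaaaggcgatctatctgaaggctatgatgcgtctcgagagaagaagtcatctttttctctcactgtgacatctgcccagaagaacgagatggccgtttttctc
Both V regions measured 270 nucleotides, and 148 of 260 aligned bases (56.9%) were identical. Of 919 TRBV2 rearrangements, 914 carried the TRBV2 sequence exactly. Of 1150 TRBV19 rearrangements, 1010 carried the TRBV19 sequence exactly.

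TRBV2 was a rare gene in the node libraries and a common one in the CD4-titled and mixed libraries. It made up 1.59% of rearrangements in dCLN WT (31 of 1949, exact Clopper-Pearson 95% interval 1.08 to 2.25) and 1.14% in dCLN 5xFAD (53 of 4661, 0.853 to 1.48). The sCLN libraries stood at 1.01% in WT (19 of 1875, 0.611 to 1.58) and 2.36% in 5xFAD (80 of 3390, 1.88 to 2.93). In iLN it made up 2.77% in WT (68 of 2454, 2.16 to 3.50) and 0.369% in 5xFAD (9 of 2441, 0.169 to 0.699). iLN WT was thus the highest and iLN 5xFAD the lowest of the node libraries, and TRBV2 ranked 15th to 20th of 21 TRBV genes in them. In the CD4-titled library it made up 6.94% (464 of 6686, 6.34 to 7.58) and ranked 6th, and in the mixed library 4.88% (195 of 3992, 4.24 to 5.60) and ranked 10th. These intervals cover counting error only. Counted by UMIs the TRBV2 share was lower in every library, from 0.233% in iLN 5xFAD to 1.11% in iLN WT, at 3.92% in the CD4-titled and 2.57% in the mixed library.

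TRBV19 was the more frequent of the pair in all 8 libraries, with intervals that overlapped those of TRBV2 in dCLN WT, sCLN WT, iLN WT and the CD4-titled library and, by a narrow margin, in sCLN 5xFAD. It made up 2.57% in dCLN WT (50 rearrangements, exact 95% interval 1.91 to 3.37) and 2.08% in dCLN 5xFAD (97, 1.69 to 2.53). The sCLN libraries stood at 1.55% in WT (29, 1.04 to 2.21) and 3.48% in 5xFAD (118, 2.89 to 4.15). In iLN it made up 2.85% in WT (70, 2.23 to 3.59) and 1.27% in 5xFAD (31, 0.864 to 1.80). The highest node library was sCLN 5xFAD and the lowest iLN 5xFAD. The CD4-titled library stood at 7.48% (500, 6.86 to 8.14) and the mixed library at 6.39% (255, 5.65 to 7.19), both above the interval of every node library. Counted by UMIs the TRBV19 share ran from 0.739% in sCLN WT to 2.4% in sCLN 5xFAD, with 5.94% in the CD4-titled and 4.78% in the mixed library.

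**Figure D1:**
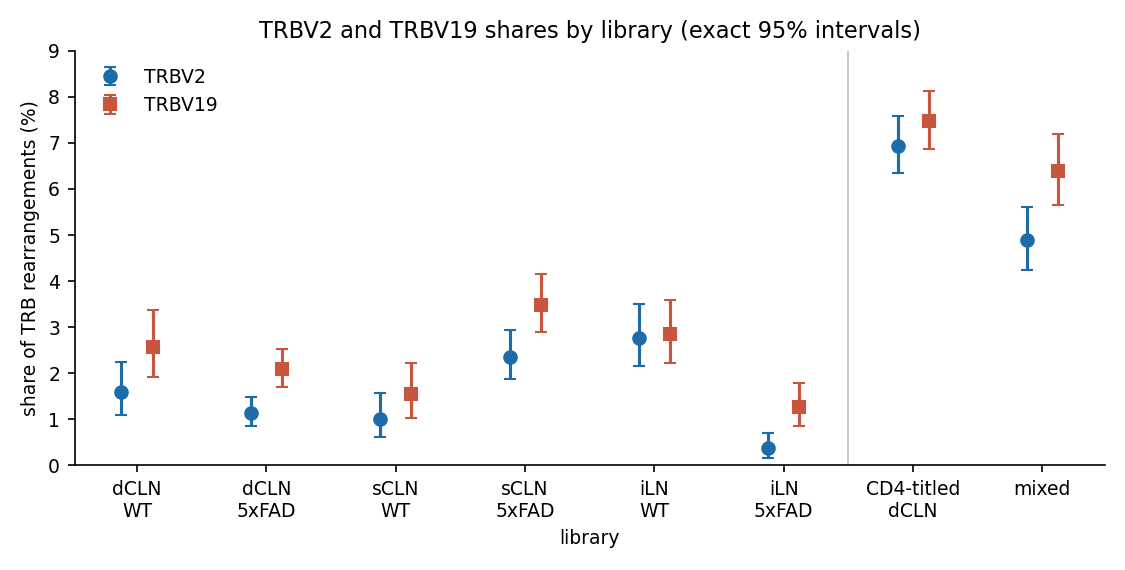
Share of TRB rearrangements (%, y axis) that used TRBV2 (circles) or TRBV19 (squares) in each of 8 libraries (x axis), with exact 95% intervals for counting error. Both genes are lowest in iLN 5xFAD, at 0.369% and 1.27%, and highest in the CD4-titled library, at 6.94% and 7.48%.

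Within nodes, the log2 ratio of the 5xFAD share over the WT share had one sign in sCLN and the other in iLN for both genes, as their selection required. For TRBV2 it was 1.19 in sCLN (95% counting interval 0.48 to 1.90), -2.84 in iLN (-3.82 to -1.87) and -0.49 in dCLN (-1.12 to 0.14). For TRBV19 it was 1.15 in sCLN (0.58 to 1.73), -1.15 in iLN (-1.76 to -0.55) and -0.31 in dCLN (-0.79 to 0.18). The dCLN intervals of both genes included 0. Of 21 TRBV genes, 3 were at least 2-fold higher in 5xFAD in sCLN (14.3%), namely both members of the pair and TRBV3, and 2 were at least 2-fold lower in iLN (9.52%), both members. No gene was past 2-fold in the other direction in sCLN or iLN, or in either direction in dCLN (0%). Just outside the choice stood TRBV3, with 1.23 in sCLN and -0.40 in iLN. TRBV12-2 was the next lowest in iLN at -0.69. With 1 library per node and genotype, these ratios compare libraries and have no replicate check.

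TRBV2 made up 38.3% and 35.3% of the pair in dCLN (WT, then 5xFAD), 39.6% and 40.4% in sCLN, and 49.3% and 22.5% in iLN. Among the 6 node libraries only iLN WT (exact 95% interval 40.7 to 57.9) and iLN 5xFAD (10.8 to 38.5) had intervals that did not overlap. The share of both genes together ran from 1.64% in iLN 5xFAD to 5.84% in sCLN 5xFAD, and reached 14.4% in the CD4-titled and 11.3% in the mixed library.

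In the CD4-titled library 2 of 21 TRBV genes (9.52%) were at least 2-fold above both untitled dCLN libraries, TRBV2 and TRBV19, which is part of what chose them. In the mixed library, whose title names no CD4, 5 of 21 TRBV genes (23.8%) lay above all 6 node libraries, namely TRBV2, TRBV19, TRBV3, TRBV12-1 and TRBV16. The high level of the pair was therefore also seen outside the CD4 title. Gene calls of these 2 libraries used a different allele set from those of the node libraries, and its part in their shares was not tested. The TRBV2 and TRBV19 calls of all 8 libraries matched the assembler's own calls in every contig.

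Over 8 libraries, TRBV16 and TRBV3 were the other TRBV genes whose log2 share moved most like that of each gene. Pearson r with TRBV2 was 0.96 for TRBV19, 0.96 for TRBV16 and 0.80 for TRBV3. With TRBV19 it was 0.96 for TRBV2, 0.90 for TRBV16 and 0.89 for TRBV3. Over the 6 node libraries alone, r of TRBV3 was 0.61 with TRBV2, where TRBV13-2 (0.87), TRBV12-2 (0.78) and TRBV12-1 (0.68) stood higher, and 0.80 with TRBV19. The libraries share depth and protocol differences, so these values are a description. TRBV16 varied over a narrow range, from 2.66% in iLN 5xFAD to 4.16% in the mixed library, and its ratios were 0.08 in sCLN and -0.47 in iLN. TRBV3 ran from 2.99% in iLN 5xFAD to 8.14% in the mixed library.

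TRBV2 and TRBV19 transcripts have long stretches before the V region. In the annotation these measure 273 nucleotides of the spliced TRBV2 transcript, 216 of them before the start codon, and 280 of the TRBV19 transcript, 214 of them before the start codon. In the mixed library, whose contigs were among the longest, the median contig held 260 nucleotides before the V region for TRBV19, the longest of 21 TRBV genes, 161 for TRBV3 and 142 for TRBV2, which ranked 3rd. The remaining 18 genes had medians of 73 to 134. In a 5′ kit the cDNA is tagged at the transcript's 5′ end, so this stretch lies between the tag and the V region.

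Across the 21 genes, this length moved with the genotype ratio in the nodes where the pair was opposed. Spearman's rho of upstream length with the log2 ratio was 0.62 in sCLN, -0.74 in iLN and -0.16 in dCLN. These values include TRBV2 and TRBV19, which were chosen by their sCLN and iLN ratios. Without them, over 19 genes, rho was 0.49, -0.65 and 0.09. The 8 other genes with at least 100 nucleotides summed to 36.4% in sCLN WT against 42.4% in sCLN 5xFAD, and to 41.5% in iLN WT against 34.8% in iLN 5xFAD. Of these 8 genes, 6 had a positive ratio in sCLN and 6 a negative one in iLN, with medians of 0.13 and -0.34. Of the 11 genes under 100 nucleotides, 3 had a positive ratio in sCLN and 9 in iLN, with medians of -0.36 and 0.25. Contigs whose V region started at base 100 or earlier were also counted alone, a restriction chosen after the data were seen. Of TRBV19 it keeps only contigs that hold a part of the upstream stretch. The shares under it are therefore not matched for length between genes. TRBV19 made up 0.658% and 0.736% of such sCLN rearrangements (8 and 13, WT then 5xFAD) and 0.377% and 0.367% of such iLN rearrangements (5 and 6). Its log2 ratio there was 0.13 in sCLN, -0.059 in iLN and -0.81 in dCLN. TRBV2 had 0 and 4 such rearrangements in sCLN and 4 and 3 in iLN. In the CD4-titled library TRBV19 made up 0.0330% (1) and TRBV2 0.165% (5) of such rearrangements, and in the mixed library each made up 0.214% (4). Under this restriction TRBV19 was lower in both than in any node library (0.367% to 0.736%), and TRBV2 lay within the range of the node libraries (0% to 0.348%). With contigs of at least 500 nucleotides, a planned limit that most contigs passed, the log2 ratio of TRBV19 was 1.16 in sCLN and -1.11 in iLN. That of TRBV2 was 1.41 in sCLN and -3.17 in iLN. Genes are not independent replicates, and the part of upstream length in the ratios of TRBV2 and TRBV19 was not tested.

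**Figure D2:**
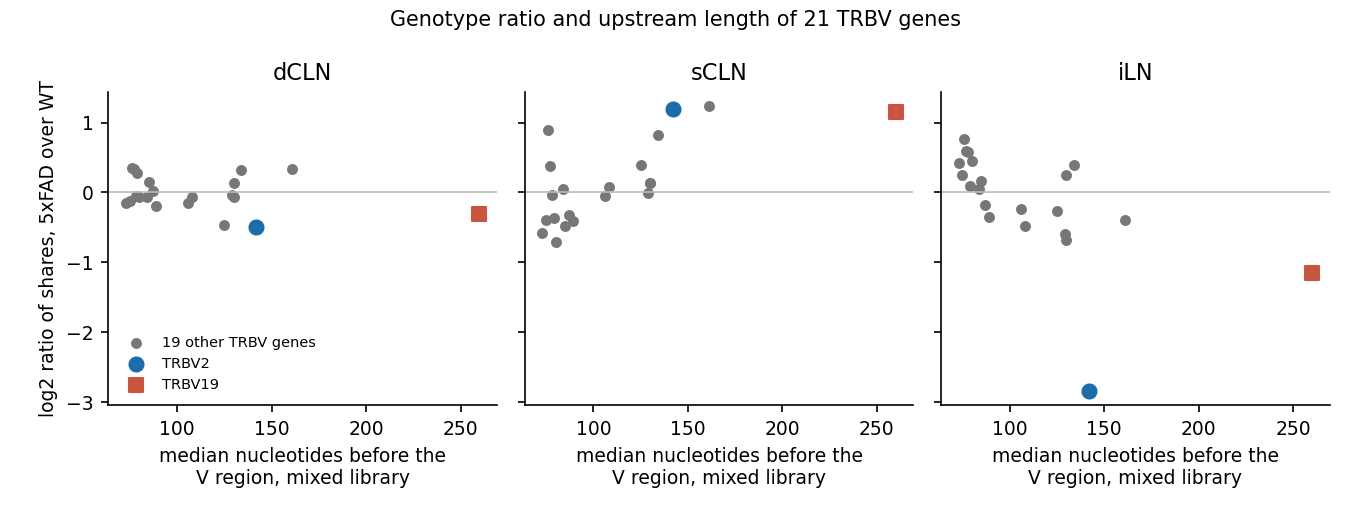
Log2 ratio of the 5xFAD over the WT share (y axis) against the median number of nucleotides before the V region in the mixed library (x axis), for 21 TRBV genes in each node. TRBV2 (circle, 142 nucleotides) and TRBV19 (square, 260) are high in sCLN and low in iLN, and the other genes slope the same way, with a rho of 0.49 and -0.65 over 19 genes.

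The share of the pair also moved with library measures. Contig length was taken from the other TRB chains, and barcodes without TRA from all barcodes, those of the pair included. The median contig of other TRB chains measured 525 nucleotides in both dCLN libraries, 523 and 530 in sCLN (WT, then 5xFAD), 528 and 522 in iLN, 536 in the CD4-titled and 537 in the mixed library. Barcodes with a TRB but no TRA chain made up 34.6% and 31.9% in dCLN (WT, then 5xFAD), 35.3% and 24.4% in sCLN, and 27.1% and 45.1% in iLN, against 19.8% in the CD4-titled and 19.2% in the mixed library. sCLN 5xFAD and iLN WT, where both genes were high, had the longest contigs and the fewest barcodes without TRA of the node libraries. iLN 5xFAD, where both were low, stood at the other end on both measures. Over the 6 node libraries, Pearson r of contig length with the share was 0.92 for TRBV2 and 0.97 for TRBV19 (Spearman's rho 0.93 and 0.99). It was 0.88 and 0.94 without sCLN 5xFAD and iLN WT, and 0.94 and 0.90 without sCLN 5xFAD and iLN 5xFAD, as iLN WT and iLN 5xFAD lay equally far from the median. Without iLN 5xFAD alone it was 0.87 and 0.96. For barcodes without TRA, r was -0.90 and -0.89 (rho -0.89 and -0.94), and -0.86 and -0.70 without sCLN 5xFAD and iLN 5xFAD. The pair was chosen on these shares, so no p is given, and what part contig length or chain recovery had in the shares was not tested.

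**Figure D3:**
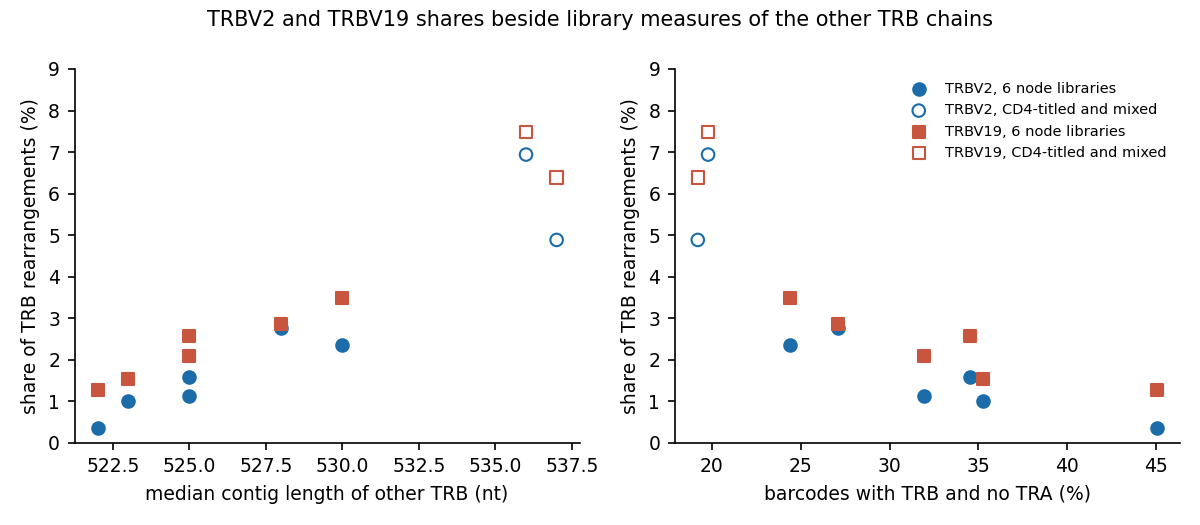
Share of TRB rearrangements (%, y axes) using TRBV2 (circles) or TRBV19 (squares) against the median contig length of other TRB chains (nucleotides, left) and the share of barcodes with TRB and no TRA (%, right), 1 point per library, open for the CD4-titled and mixed libraries. The right measure is taken over all barcodes, those with TRBV2 or TRBV19 included. Shares rise from iLN 5xFAD, at 522 nucleotides and 45.1% of barcodes without TRA, to the CD4-titled and mixed libraries, at 536 and 537 nucleotides and under 20% (19.8% and 19.2%).

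The upstream stretch of the genes' own contigs was shorter in the node libraries than in the CD4-titled and mixed libraries. For TRBV2 the median was 125 nucleotides in both dCLN libraries, 124 and 128 in sCLN (WT, then 5xFAD), 127 and 124 in iLN, and 142 in each of the CD4-titled and mixed libraries. For TRBV19 it was 206.5 and 220 in dCLN, 167 and 209.5 in sCLN, 225.5 and 190 in iLN, and 260 in each of the CD4-titled and mixed libraries. TRBV2 contigs most often began 124 nucleotides before the V region, in 70 of 260 rearrangements of the node libraries (26.9%) and 214 of 659 of the CD4-titled and mixed libraries (32.5%). Contigs that reached the annotated transcript start were rare in the node libraries, at 0% to 3.75% for TRBV2 and 0% to 5.71% for TRBV19. They made up 19.6% of TRBV2 and 23.4% of TRBV19 rearrangements in the CD4-titled library, and 11.8% and 18.8% in the mixed library. In those libraries 114 TRBV2 rearrangements began at the annotated start exactly (273 nucleotides) and 165 TRBV19 rearrangements did (280 nucleotides).

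**Figure D4:**
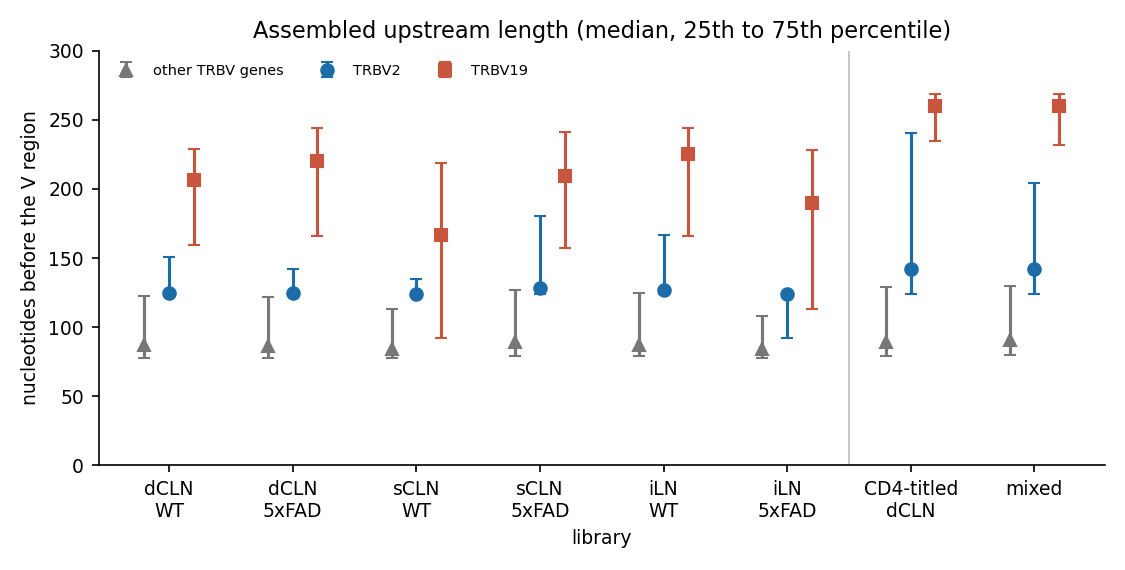
Nucleotides assembled before the V region (y axis) in TRBV2, TRBV19 and other TRB rearrangements of each library (x axis), as the median with the 25th to 75th percentile. TRBV19 medians lie between 167 and 225.5 in the node libraries and at 260 in the CD4-titled and mixed libraries, and TRBV2 medians between 124 and 128 and at 142.

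Within libraries, both genes differed from the other TRB chains in measures that did not choose them. These 11 measures were compared over the 6 node libraries with an exact two-sided sign-flip permutation test, whose smallest p is 0.03125. For TRBV2, 7 of 11 measures passed after Benjamini-Hochberg adjustment, and for TRBV19 8 of 11. In each of the passing measures all 6 libraries moved the same way. Upstream length and V-encoded junction bases depend on the germline V gene itself, and contig length includes the upstream stretch. For these the shared direction followed largely from the gene. They also count in the adjustment, and the other measures pass only with them included. Adjusted p was 0.0491 for each passing TRBV2 measure and 0.0430 for each passing TRBV19 measure, from this exact test. With at least 2 UMIs per chain, or with barcodes of 1 TRB chain, the TRBV19 count fell to 0, and 6 measures stayed at the smallest p of the exact test (adjusted p = 0.0573). Without any 1 library the test cannot pass, as 5 libraries cannot go below 0.0625.

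TRBV2 and TRBV19 chains carried fewer unique molecules (UMIs) than other TRB chains. Here each rearrangement has the value of its contig with most UMIs. Other rearrangements were more often in 2 or more barcodes, and the part of this in the difference was not tested. Mean log2 UMIs per TRBV2 chain were 1.98 and 2.15 in dCLN (WT, then 5xFAD), 2.08 and 2.15 in sCLN, and 1.80 and 2.48 in iLN, against 2.95 to 3.25 in other chains, a mean difference of -1.02 ± 0.24 (SD, n = 6 libraries). For TRBV19 they were 2.49, 2.81, 2.11, 2.67, 2.61 and 2.63 in the same order, a mean difference of -0.57 ± 0.23. The values of neither gene overlapped those of the other chains. The TRA chain found in the same barcodes did not share this pattern at a detectable level. Its mean log2 UMIs differed from those of other barcodes by 0.12 ± 0.16 for TRBV2 and 0.12 ± 0.17 for TRBV19, higher in 4 of 6 libraries for each (exact sign-flip p = 0.125 and 0.156, adjusted p = 0.156 for both).

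A TRA chain was found more often in barcodes with these genes. For TRBV2 the share of barcodes with a TRA chain was 74.2% and 81.1% in dCLN (WT, then 5xFAD), 73.7% and 92.6% in sCLN, and 81.2% and 66.7% in iLN. In other barcodes it was 62.0%, 64.1%, 59.7%, 72.5%, 69.7% and 48.7% in the same order, so TRBV2 lay above in 6 of 6 libraries, by 15.5 ± 3.43 percentage points. For TRBV19 the share was 70.6%, 82.5%, 60.0%, 81.1%, 71.4% and 61.3%, above in 6 of 6 by 8.39 ± 6.75 points. The difference for TRBV19 was small in sCLN WT, at 0.308 points. Upstream length was greater by 39.3 ± 0.816 nucleotides for TRBV2 and 117 ± 20.2 for TRBV19 than the median of other chains. Contig length was greater by 99.3 ± 29.6 nucleotides for TRBV19, which passed, and by 31.8 ± 15.7 for TRBV2, which did not (adjusted p = 0.0764 from the exact test).

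**Figure D5:**
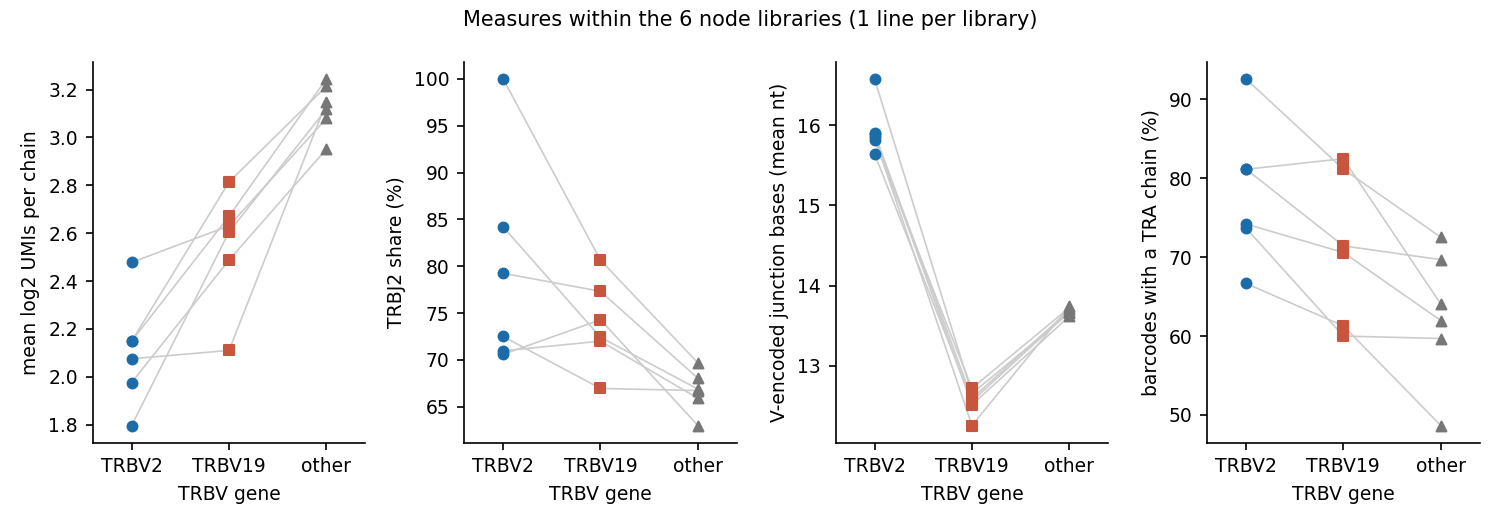
Measures in TRBV2, TRBV19 and other TRB chains of the 6 node libraries, 1 line per library: mean log2 UMIs per chain, share joined to a TRBJ2 gene (%), mean junction bases encoded by the V gene (nucleotides) and share of barcodes with a TRA chain (%). In all 6 libraries TRBV2 and TRBV19 lie below the other chains for UMIs and above them for TRBJ2 and TRA.

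The J cluster used also differed. TRBJ2 genes, the cluster farther from the V genes, were joined to TRBV2 in 71.0% and 79.2% of rearrangements in dCLN (WT, then 5xFAD), 84.2% and 72.5% in sCLN, and 70.6% and 100.0% in iLN, the last being 9 of 9. Other TRBV genes were joined to TRBJ2 in 65.9%, 68.0%, 66.9%, 66.7%, 63.0% and 69.7% in the same order, so TRBV2 lay above in 6 of 6 libraries by 12.9 ± 9.66 points. For TRBV19 the share was 72.0%, 77.3%, 72.4%, 66.9%, 74.3% and 80.6%, above in 6 of 6 by 7.23 ± 4.19 points, with a difference of 0.220 points in sCLN 5xFAD. In the CD4-titled library TRBJ2 made up 62.7% of TRBV2, 62.8% of TRBV19 and 61.5% of other rearrangements. In the mixed library it made up 64.6%, 58.4% and 62.3%, where TRBV19 lay below the other chains. The TRBJ2 excess of the node libraries was thus small or of opposite sign in these libraries, and that difference was not tested.

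The junctions of TRBV2 were longer than those of other chains and those of TRBV19 held fewer V-encoded bases. TRBV2 junctions measured 43.2 ± 0.542 nucleotides (SD over 6 library means) against 41.8 ± 0.116, with library means of 42.5 to 43.7. The V gene encoded 15.9 ± 0.324 of these bases, against 13.7 ± 0.0451 in other chains. TRBV19 encoded 12.6 ± 0.161 bases, fewer than other chains in 6 of 6 libraries, and 3.83 ± 0.273 bases were inserted at the joins against 3.45 ± 0.0911, higher in 6 of 6. Its junction length, 41.0 ± 0.562 nucleotides, was lower in 5 of 6 libraries and did not pass (adjusted p = 0.0764 from the exact test). TRBV2 had 3.01 ± 0.402 inserted bases, lower in 5 of 6, which did not pass (adjusted p = 0.0764, same exact test).

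Against each other, 0 of 11 measures passed, and 6 were at the smallest p of the exact test (0.03125, adjusted p = 0.0573). All 6 libraries had longer junctions in TRBV2, by 2.28 ± 0.951 nucleotides, with 3.4 ± 0.322 more V-encoded and 0.813 ± 0.545 fewer inserted bases (a difference of -0.813). TRBV2 chains also had lower log2 UMIs, by a mean difference of -0.45 ± 0.30, and contigs shorter by a mean difference of -67.4 ± 19.4 nucleotides.

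Junctions of both genes are shown by a fixed rule, the rearrangement found in most libraries and the one with most barcodes in 1 library. Capitals mark the bases between the V and the J segment, and the junction runs from the codon of the conserved cysteine to that of the conserved phenylalanine.
TRBV2 with TRBJ1-3, most libraries: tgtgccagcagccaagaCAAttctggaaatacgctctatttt
TRBV2 with TRBJ2-5, most barcodes: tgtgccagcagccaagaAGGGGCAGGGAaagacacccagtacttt
TRBV19 with TRBJ2-4, most libraries: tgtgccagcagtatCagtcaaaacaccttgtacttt
TRBV19 with TRBJ1-3, most barcodes: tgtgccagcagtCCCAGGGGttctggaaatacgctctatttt
The first TRBV2 junction was in 3 barcodes and the first TRBV19 junction in 2, both of the CD4-titled and mixed libraries, with 3 and 1 bases between V and J. The others were in 4 and 5 barcodes of the CD4-titled library, with 11 and 8 such bases and a call to the TRBD1 segment.

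Repeats of these rearrangements were rare. In the node libraries 0.453% ± 0.706 of TRBV2 and 1.47% ± 1.69 of TRBV19 rearrangements were in 2 or more barcodes, against 4.26% ± 2.58 of others (SD, n = 6 libraries), lower in 6 of 6 for each gene. In dCLN WT, where repeats of other chains were most frequent at 9.05%, they stood at 0 of 31 for TRBV2, which the small number limits, and 2.00% of 50 for TRBV19. TRBV2 also had 0 of 53 in dCLN 5xFAD, 0 of 19 in sCLN WT and 0 of 9 in iLN 5xFAD. TRBV19 had 0 of 97 in dCLN 5xFAD, 0 of 70 in iLN WT and 0 of 31 in iLN 5xFAD. With few rearrangements a count of 0 can arise at the rate of other chains too. The shared direction and the pass of this measure are therefore weak evidence of a difference. In the CD4-titled library TRBV2 and TRBV19 stood at 3.45% and 4.00%, against 2.83% of others. Of 918 distinct TRBV2 and 1149 distinct TRBV19 rearrangements, 1 of each was found in 2 libraries.

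By nucleotides, no TRBV2 or TRBV19 rearrangement was shared between node libraries. For TRBV2 that was 0 of 9426 pairs of rearrangements of the same genotype, which allows up to 318 per 1000000 pairs, and 0 of 16756 of different genotype (up to 179). For TRBV19 it was 0 of 25091 (up to 120) and 0 of 36654 (up to 81.8). Over pairs with the same V gene, other chains shared 20.6 per 1000000 within and 9.15 between genotypes, under those limits, so sharing of this frequency was not detectable at this depth. By junction amino acids, TRBV2 shared 2 within genotypes (212 per 1000000 pairs, Poisson 95% interval 25.7 to 766) and 0 between. TRBV19 shared 0 within and 2 between (54.8, 6.63 to 198). Other chains shared 176 and 187 by amino acids, 52.3 and 41.1 per 1000000 pairs with the same V gene, rates inside the intervals of the 2 counts above 0. In pairs with the CD4-titled or mixed library, the pair of these with each other included, TRBV2 shared 13 (49.9 per 1000000, Poisson 95% interval 26.6 to 85.4). TRBV19 shared 8 there (18.95, 8.18 to 37.3). Other chains shared 40.2 per 1000000 pairs with the same V gene, inside the TRBV2 interval and above that of TRBV19, a difference that was not tested.

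TRBV19 was found in 2 germline forms in the node libraries and in 1 form in the CD4-titled and mixed libraries. The second form carried T69C and A91T, counted from 1 at the first base of the V region, with the reference base first. T69C changed the codon tgt to tgc, both cysteine, and A91T changed aca to tca, threonine to serine, in CDR1. The windows around both positions are shown with the differing base in capitals, as they are what tells the forms apart.
T69C, reference form: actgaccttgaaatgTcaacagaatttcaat
T69C, second form: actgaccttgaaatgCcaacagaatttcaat
A91T, reference form: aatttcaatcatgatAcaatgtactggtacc
A91T, second form: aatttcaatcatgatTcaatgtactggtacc
In the genome these positions are 41178831 and 41178853 of chromosome 6 (GRCm38).

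Of TRBV19 rearrangements with either form, the second form made up 44.9% in dCLN WT (22, with 27 of the reference form, exact 95% interval 30.7 to 59.8) and 35.1% in dCLN 5xFAD (33 and 61, 25.5 to 45.6). The sCLN libraries stood at 27.6% for WT (8 and 21, 12.7 to 47.2) and 29.3% for 5xFAD (34 and 82, 21.2 to 38.5). The iLN libraries stood at 35.3% for WT (24 and 44, 24.1 to 47.8) and 35.5% for 5xFAD (11 and 20, 19.2 to 54.6). All 6 intervals overlapped. It was thus present in each genotype, with means over 3 node types of 35.9% ± 8.67 (SD) for WT and 33.3% ± 3.46 for 5xFAD (two-sided exact sign-flip test, p = 1.0, smallest possible 0.25). In the CD4-titled library 0 of 500 TRBV19 rearrangements had it, which allows up to 0.6%, and in the mixed library 0 of 255, which allows up to 1.18%. The mixed library is titled as holding the same nodes and genotypes, in which 132 of 395 rearrangements had the second form. The CD4-titled and mixed libraries therefore differ from the node libraries in TRBV19 germline sequence as well as in its share.

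The forms were compared within the 6 node libraries in 5 measures, chosen after the forms were seen. Second-form contigs were longer in 6 of 6 libraries, by 34.5 ± 17.0 nucleotides (exact sign-flip p = 0.03125, adjusted p = 0.156). Mean log2 UMIs were 2.89 ± 0.41 in the second and 2.35 ± 0.22 in the reference form, higher in 5 of 6 (exact p = 0.0625, adjusted p = 0.156). Upstream length was 218 ± 4.92 against 184 ± 30.1 nucleotides, higher in 5 of 6 (exact p = 0.0938, adjusted p = 0.156). TRBJ2 share and junction length had exact p of 0.75 and 0.313. None passed after adjustment.

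Partner genes were tested feature by feature with edgeR, in the 6 node libraries with the library as a block. No TRBJ gene, TRAV subgroup or TRAJ gene passed: 0 of 73 for TRBV2 against other chains (0%), 0 of 73 for TRBV19 (0%) and 0 of 47 between both (0%), with 8, 6 and 2 at an unadjusted edgeR p under 0.05. DESeq2 also gave 0, with 1, 5 and 3 at that level. With TMM scaling in place of the offset, edgeR called 3 TRBJ genes for TRBV2 and 2 for TRBV19. That scaling took TRBJ counts and TRAV and TRAJ counts of a column together. A TRA chain was found more often with these genes, which lowers their scaled TRBJ counts. These calls therefore cannot be read as a difference in TRBJ use. With the offset kept and sCLN WT left out, edgeR called TRBJ1-2 for TRBV19. In simulated counts raised 4-fold in the first gene of a comparison, 85.0%, 92.5% and 79.2% of changes were recovered in the same order. With counts raised 2-fold, 20.8%, 30.8% and 26.7% were recovered. Decreases, the direction of most features named below, were not simulated, so how many of them the test would find is not known.

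None of the features with the smallest p passed the test. With TRBV2, TRBJ1-3 made up 1.85% ± 1.95 of rearrangements against 5.03% ± 0.579 with other V genes (SD, n = 6), a log2 difference of -1.40 (SE 0.58). TRAJ15 was in 1 TRBV2 clonotype, 0.303% ± 0.742 against 3.19% ± 0.374, and TRAV16 in 4, 1.24% ± 1.53 against 5.25% ± 0.587. Each was lower in 6 of 6 libraries, with an edgeR adjusted p of 0.395. With TRBV19, TRBJ1-2 had a log2 difference of -1.28, SE 0.42 (edgeR adjusted p = 0.172), at 2.42% ± 2.57 against 5.5% ± 0.956. TRBJ2-4 stood at 11.4% ± 4.06 against 8.28% ± 0.484, and TRAJ31 at 1.91% ± 2.30 against 4.58% ± 0.639 (edgeR adjusted p = 0.268 for both). Between the genes, TRAJ18 was in 2 TRBV2 and 16 TRBV19 clonotypes, lower in TRBV2 in 6 of 6 libraries at 0.538% ± 0.843 against 6.57% ± 2.93 (edgeR adjusted p = 0.394). TRAJ31 and TRAJ33 were in 13 TRBV2 clonotypes each, and in 4 and 7 of TRBV19.

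Contig and UMI measures of the pair showed no genotype difference that the design could call, since an exact sign-flip test over 3 node types cannot go below p = 0.25. Mean log2 UMIs were higher in 5xFAD in 3 of 3 nodes for each gene, by 0.31 ± 0.33 for TRBV2 and 0.30 ± 0.27 for TRBV19 (exact sign-flip p = 0.25, adjusted p = 1.0 over 8 measures). Other TRB chains of the same libraries were also higher in 5xFAD in dCLN, by 0.26, and in sCLN, by 0.10, and differed by -0.04 in iLN. TRBV19 upstream length was greater in 5xFAD by 13.5 nucleotides in dCLN and 42.5 in sCLN, and differed by -35.5 in iLN (exact p = 0.75). Its sign by node thus followed that of the share in sCLN and iLN and not in dCLN.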

How the data were processed

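T-cell receptor contigs of 8 of 9 deposited tables were used, with 1 row per contig. Per the file headers, the authors deposited raw counts of UMIs and reads per contig, the V identity as a fraction of aligned bases, and lengths and positions in nucleotides. The submitters' processing notes name Cell Ranger 6.0.1, Seurat 4.1.0 and mm10 without saying what each was used for. Gene segments were assigned by IgBLAST, per the file headers. TRBV2, TRBV19 and all lists were chosen with earlier results of these data known.

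Productive TRB contigs were grouped by the first gene of the V call, and 0 calls named several genes. Distinct rearrangements were counted per library with no UMI minimum, and each was measured on its contig with most UMIs. Log2 ratios used a pseudocount of 0.5, and limits for counts of 0 were set at 3 counts. Shares had exact Clopper-Pearson 95% intervals, which cover counting error only. V-encoded bases were those from the junction's start to the end of the V alignment, and inserted bases were counted in rearrangements with a D call. Upstream length is the number of bases before the V region in the contig.

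Partner genes were counted as TRBJ genes over rearrangements and as TRAV subgroups and TRAJ genes over paired clonotypes, that is, barcodes with 1 TRB and 1 or 2 TRA chains, the TRA with more UMIs being kept. Features with under 10 counts were left out. edgeR 4.0.16 (R 4.3.3) fitted a quasi-likelihood model with the library as block and the number of rearrangements or clonotypes as offset, with Benjamini-Hochberg adjustment and a threshold of 0.05. It was tested on simulated counts with increases only and a dispersion of 0.01. Other tests were exact sign-flip permutation tests in Python 3.11.15 (SciPy 1.17.1). Alternatives covered the counted unit, UMI and length minimums, barcodes with 1 TRB chain, DESeq2 1.42.0, TMM, the filter, the block and each library left out. No other doublet treatment was applied. V regions were matched to GENCODE transcripts of GRCm38. Genes likest in pattern were the 3 with the highest Pearson r among TRBV genes with at least 100 rearrangements. Partner features past the threshold, or else the 3 with the smallest p, were named. The TRA UMI comparison, the transcript starts, the TRBV19 forms and the sets by upstream length were added after the data were seen.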

Additional observations from a re-analysis of the deposited data

Results flagged for a closer look

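The 5xFAD to WT ratios of both genes differed between nodes, the pattern on which they were chosen. The log2 ratio of TRBV2 in dCLN minus that in sCLN was -1.68, and that in sCLN minus iLN was 4.03. For TRBV19 these differences were -1.46 and 2.31. Each was listed because the ratio had opposite signs in the nodes compared, although the dCLN intervals included 0. The differences were not tested, since each node held 1 library per genotype, and they are no independent support for an opposition between nodes.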

How the results depend on the processing

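Counted by UMIs, the shares were lower than by rearrangements in all 8 libraries for both genes, by over 1.5 times for TRBV2 in each. Every log2 genotype ratio kept its sign when barcodes or UMIs were counted, with at least 2 UMIs, with 1 TRB chain per barcode, with contigs of at least 500 nucleotides and without the pseudocount. Restricted to contigs whose V region started at base 100 or earlier, a setting chosen after seeing the data, TRBV2 stood at 2.63 in sCLN, from 0 of 1215 and 4 of 1766 rearrangements, a value set by the pseudocount, at -0.66 in iLN and at -0.96 in dCLN. TRBV19 stood at -0.81 in dCLN, 0.13 in sCLN and -0.059 in iLN. These rest on 0 to 13 rearrangements per node library. Under it TRBV19 fell to 0.0330% in the CD4-titled and 0.214% in the mixed library, below the node libraries. This setting keeps only TRBV19 contigs that hold a part of the upstream stretch, and the cause of the fall was not tested. The measures past the threshold for TRBV19 went from 8 to 0 with at least 2 UMIs and to 0 with 1 TRB chain per barcode. Without any 1 library the count was 0 for both genes, which follows from 5 libraries. With TMM, edgeR called 3 partner genes for TRBV2 (TRBJ1-1, TRBJ1-3 and TRBJ2-1) and 2 for TRBV19 (TRBJ1-1 and TRBJ1-2). As TMM scaled TRBJ and TRA gene counts together, these calls cannot be read as a difference in TRBJ use. Leaving out a library gave 0 to 1 for TRBV19, the 1 being TRBJ1-2 without sCLN WT. Some differences that had not passed changed sign. Rearrangements without inserted bases, TRBV2 minus other (-0.0191 points), gave 0.10 with at least 2 UMIs and -2.08 to 1.09 without 1 library, and TRBV2 minus TRBV19 gave -0.0683 to 4.22. TRBD2 use gave -6.74 to 6.32 and -2.35 to 11.3. The TRBV2 upstream difference between genotypes was -0.167 nucleotides with at least 2 UMIs. The block in edgeR was the library. Without it edgeR gave 0 in the 3 comparisons. Depth limits TRBV2 most, with 9 rearrangements in iLN 5xFAD.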
